A study of Mus musculus with 8 samples.

Results

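The cells described here are those of the 2 day 8 libraries in which the transcript of Hopx reached a log2 value of at least 3. They were selected on that measured value, so their Hopx level is a description and carries no test. There were 1106 such cells among 6177 cells at day 8 and 30408 cells in all 8 libraries. They are called Hopx-high cells, and they were compared, within each library, with the day 8 cells whose Hopx value was 0, called Hopx-zero cells.

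The libraries came from primary hippocampal neural stem and progenitor cells (NPCs), isolated from the dentate gyrus of mouse embryos and collected at days 0, 2, 4 and 8 after the growth factors EGF and FGF2 were taken away. One group carries the allele Mll2Gt(RRt024)Byg in 1 copy and is labelled Kmt2d+/βgeo; the other is labelled C57BL/6J with a wildtype allele and is called wild type. Embryos of both groups were littermates from Kmt2d+/βgeo males and C57BL/6J females, at embryonic day 18 by the labels (the study's methods name an earlier day), and each genotype and day has 1 library of cultured cells made with droplet 3′ chemistry. An embryo or a culture therefore cannot be told apart from a genotype, cells are not replicates, and no comparison below has a test.

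Hopx encodes a small homeodomain-only protein that does not itself bind DNA. In the dentate gyrus it marks radial glia-like stem cells, including their precursors before birth, and it is also present in many astrocytes, cells which share much of their expression programme with those stem cells. Sox9 is a transcription factor of neural stem cells and of the astrocyte lineage, while Olig2 is a transcription factor of oligodendrocyte precursors and of some dividing progenitors.

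Some properties of the libraries bear on every value below. The median depth on the 9140 genes of the matrix was 3972 UMIs (unique molecular identifiers, each standing for 1 captured RNA molecule) per cell in the day 8 Kmt2d+/βgeo-labelled library and 6989 in the one labelled wild type. Hopx-zero cells were shallower than Hopx-high cells in both, with medians of 3315 against 4278 UMIs in the first library and 6487 against 7074 in the second. Kmt2d, the targeted gene, had mean normalised counts of 0.290 and 0.241 at day 8, and it was also higher in the Kmt2d+/βgeo-labelled library at days 0 and 4 but lower at day 2. No source used here places the gene trap relative to the 3′ tags, so this gene does not check the labels. At day 8, 15 and 30 cells carried a barcode also present in another library, among them 3 and 0 Hopx-high cells.

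The share of Hopx-high cells at day 8 was 32.9% in the Kmt2d+/βgeo-labelled library (976 of 2965 cells, exact 95% interval 31.2 to 34.6%) and 4.05% in the one labelled wild type (130 of 3212 cells, 3.39 to 4.79%). These intervals cover counting error only. The Hopx-zero cells made up 27.5% (815 cells) and 39.6% (1273 cells), and the remaining 1174 and 1809 cells lay above 0 and below 3. Because 1 UMI is worth more in a shallower cell, each cell was also thinned to 3000 UMIs. At that common depth 33.6% of 2208 cells in the Kmt2d+/βgeo-labelled library and 5.36% of 3207 cells in the one labelled wild type held at least 3 Hopx UMIs. The summed Hopx UMIs of all cells, 8905 and 4934, gave a log2 ratio of 1.81 between the libraries after scaling by their totals (95% interval 1.76 to 1.86, counting error only). With 1 library on each side, the difference between genotypes has no replicate check.

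On each earlier day the share was below that of the day 8 Kmt2d+/βgeo-labelled library, while the day 2 share labelled wild type was above that of day 8. None were found among 4857 cells of the day 0 library labelled wild type, which allows a share of up to 0.0618% by the limit of 3 counts, and 23 (0.531%) in the one labelled Kmt2d+/βgeo. The day 2 libraries held 267 (5.45%) and 231 (5.64%) for Kmt2d+/βgeo and wild type, and the day 4 libraries 65 (2.57%) and 103 (2.93%). The share labelled Kmt2d+/βgeo minus that labelled wild type was -0.19 percentage points at day 2 and -0.37 at day 4, against 28.9 at day 8. With 1 library on each side on each day, none of these gaps is read as a genotype difference. Glul and Apoe, unlike Mt3, had close means in the Hopx-zero cells of the day 4 libraries, as given below.

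**Figure D1:**
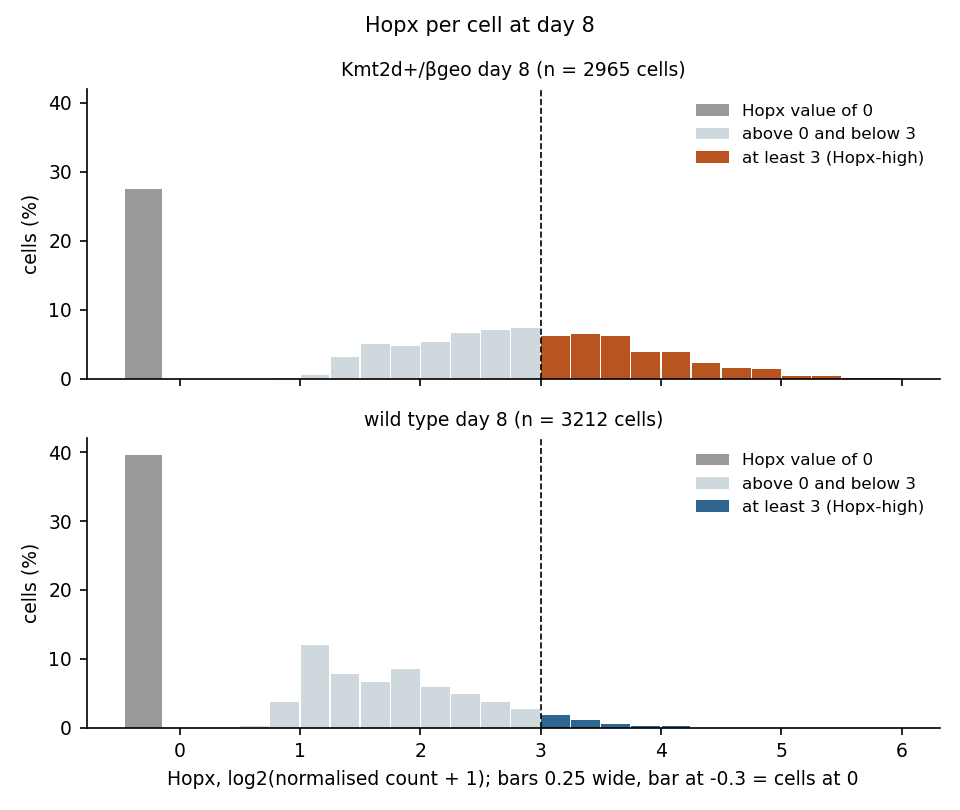
Histogram of Hopx per cell at day 8, as log2 of the normalised count plus 1 on the horizontal axis and percent of the library's cells on the vertical axis, with the Kmt2d+/βgeo-labelled library above and wild type below. Bars are 0.25 wide, the grey bar holds cells at 0, and coloured bars right of the dashed line hold the 976 and 130 Hopx-high cells, which continue the distribution of lower cells with no gap at the threshold.

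The threshold cut through a continuous distribution. In the Kmt2d+/βgeo-labelled library, 216 cells lay from 2.75 up to 3 and 183 from 3 up to 3.25, and in the one labelled wild type these numbers were 86 and 59. The cell just inside had a log2 value of 3.0002 and the one just outside 2.9991 in the first library, and 3.0013 and 2.9994 in the second. Hopx-high cells labelled Kmt2d+/βgeo had a median log2 value of 3.66 (quartiles 3.33 and 4.11, highest 5.77), against 3.27 (quartiles 3.13 and 3.51, highest 4.69) for those labelled wild type. A log2 value of 4 or more was reached by 303 and 10 of them. The Hopx UMIs behind these values had medians of 5 (range 1 to 35) and 7 (range 4 to 17), and 71 of the Hopx-high cells labelled Kmt2d+/βgeo rested on fewer than 3 UMIs. The mean normalised count of Hopx in the members was 13.9 and 9.61. The gene, ENSMUSG00000059325, lies on chr5:77086988-77115121 (GRCm38) and overlaps the antisense gene Hopxos in the GENCODE M21 annotation. No source used here says whether the authors' counting used strand, so reads of that transcript may be included.

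Hopx-high cells differed only a little from Hopx-zero cells across most of the transcriptome. Ratios of mean normalised counts, Hopx-high over Hopx-zero, were computed for genes with a mean of at least 0.1 in either class. In the Kmt2d+/βgeo-labelled library 34 of 7580 genes (0.449%) were higher by a log2 ratio of at least 1 and 111 (1.46%) lower, so 145 (1.91%) passed this fold in either direction. In the library labelled wild type 26 of 7567 genes (0.344%) were higher and 132 (1.74%) lower, 158 (2.09%) in all. The median log2 ratio over all genes compared was -0.06 in each, and 90% of genes lay between -0.63 and 0.44 in the first library and between -0.71 and 0.44 in the second. The split between higher and lower genes varied between settings. After thinning, which also left out shallower cells, it was 58 against 108 and 76 against 432. With 719 and 130 cells a class, matched on depth, it was 50 against 96 and 113 against 202. With the minimum of 0.1 set on the mean over all cells of the library, so that no gene entered through 1 class, it was 27 against 57 and 5 against 101. On the scale of mean log2 values 1 and 0 genes passed a difference of 1.

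The number of genes past the fold in both libraries depended on the minimum. Of 7273 genes compared in both libraries, 1 (0.0137%) was higher past the fold in both and 26 (0.357%) were lower in both. The 26 are 33.8% of the lower genes of the Kmt2d+/βgeo-labelled library and 22.2% of those of the library labelled wild type, counted over genes compared in both. Of the 26 lower genes 16 reached the minimum mean in Hopx-zero cells alone in both libraries and 19 in at least 1. With the minimum set on all cells of the library 0 genes were higher and 12 (0.170% of 7058) lower in both. Sharing the sign is a weaker requirement than sharing the fold, so it is met at least as often by construction. Of 28 higher and 77 lower genes of the Kmt2d+/βgeo-labelled library 24 and 66 had the same sign in the one labelled wild type. Of 13 higher and 117 lower genes of the latter 7 and 96 had it in the former. Over all 7273 genes 21.7% were higher and 40.4% lower in both. These shares are of all genes, whereas the counts above start from genes past the fold on 1 side in 1 library. No share on that basis is given here, so none of the same-sign counts is read as a result about those genes. The single higher gene, Fhdc1, an actin-regulating formin, had low means of 0.161 against 0.0746 and 0.112 against 0.0560, entered through Hopx-high cells alone in both libraries, and was chosen after its values were seen. Among the 2968 genes with a mean of at least 0.5, 1970 (66.4%) had ratios of the same sign in both libraries, 772 of them higher in Hopx-high cells and 1198 lower.

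**Figure D2:**
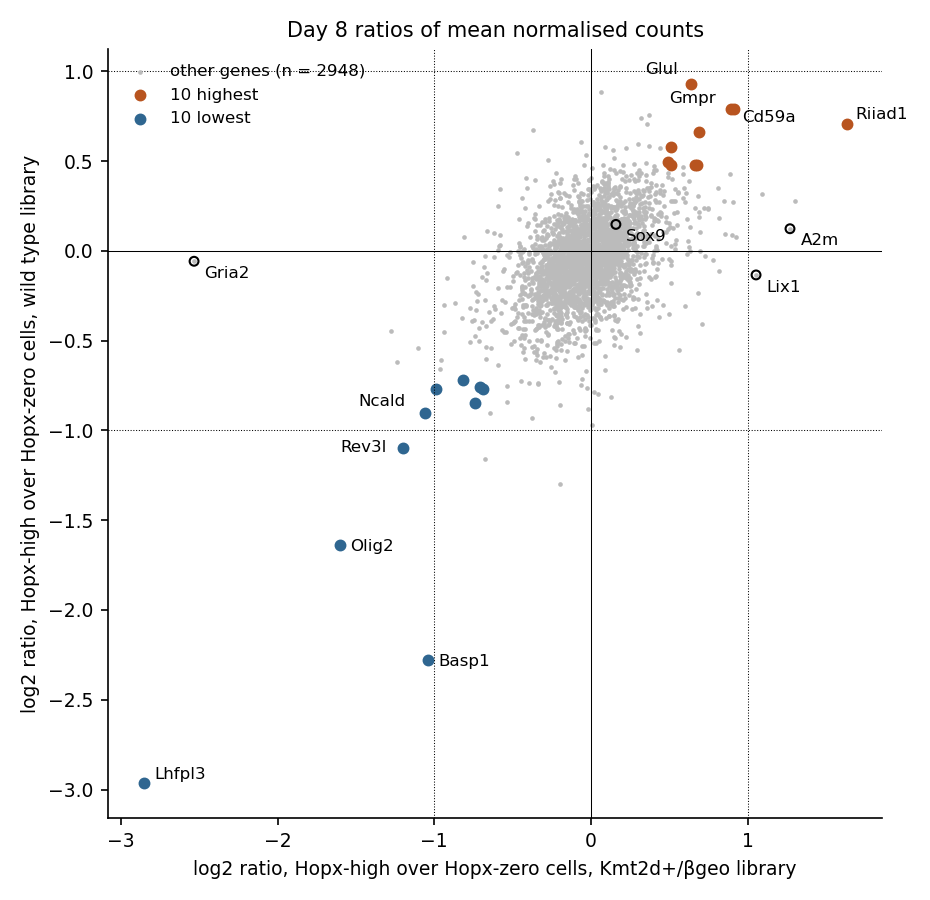
Log2 ratio of mean normalised counts, Hopx-high over Hopx-zero cells at day 8, for genes with a mean of at least 0.5 in either class in both libraries, with the Kmt2d+/βgeo-labelled library on the horizontal axis and wild type on the vertical axis. Dotted lines mark a log2 ratio of 1 in either direction; the 10 lowest genes reach -2.85 and -2.96 for Lhfpl3, while the 10 highest stay below 1 except Riiad1 in the Kmt2d+/βgeo-labelled library, and Sox9 lies near 0 on both axes.

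Sox9 was detected in most Hopx-high cells and was only slightly higher than in Hopx-zero cells. Its mean normalised count was 7.66 against 6.86 in the Kmt2d+/βgeo-labelled library and 7.30 against 6.59 in the one labelled wild type, log2 ratios of 0.16 and 0.15. After thinning, 82.4% of Hopx-high and 71.4% of Hopx-zero cells held a Sox9 UMI in the first library, and 87.7% and 82.7% in the second. At least 1 Sox9 UMI was thus found in most cells of both classes, and Hopx itself was fixed by the selection. What share of cells would hold such a UMI from RNA of other cells was not tested.

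The 10 genes with the highest ratios in both libraries included metabolic enzymes and surface proteins. Gmpr, which encodes guanosine monophosphate reductase of purine metabolism, had means of 1.96 in Hopx-high and 1.06 in Hopx-zero cells labelled Kmt2d+/βgeo, and 2.12 against 1.23 in those labelled wild type. Its log2 ratios were 0.90 and 0.79, and the thinned share of cells with a UMI was 46.8% against 26.1% and 46.2% against 29.8%. Cd59a, a surface inhibitor of complement, had means of 1.54 against 0.817 and 0.948 against 0.549. The ratios of Cd59a were 0.91 and 0.79, and its close copy Cd59b could have taken or lent reads. Both genes were higher in Hopx-high cells by less than the fold threshold, in both libraries.

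Glul, glutamine synthetase, which astrocytes use to clear glutamate, differed far more between the libraries than between the classes. Its means were 0.568 against 0.365 in the Kmt2d+/βgeo-labelled library and 2.35 against 1.24 in the one labelled wild type, with log2 ratios of 0.64 and 0.93. The Hopx-zero cells labelled wild type thus held more Glul than the Hopx-high cells labelled Kmt2d+/βgeo. Riiad1 had the highest ratio of the 10 in the Kmt2d+/βgeo-labelled library, 1.63 (means of 0.649 against 0.210), and 0.71 in the one labelled wild type (0.915 against 0.560).

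Rida, an enzyme that removes reactive imine intermediates, and Lxn, a carboxypeptidase inhibitor, were the most abundant of the 10. Rida had means of 7.54 against 4.71 and 9.39 against 6.73, and log2 ratios of 0.68 and 0.48. Lxn had means of 6.999 against 4.41 and 15.8 against 11.3, and log2 ratios of 0.66 and 0.48. The remaining members of this set were Sel1l3 (0.69 and 0.66), Ankrd50 (0.51 and 0.58), the adhesion protein gene Vcl (0.49 and 0.49) and the lysophosphatidic acid receptor gene Lpar4 (0.51 and 0.48). The 10 were chosen for their ratios in these same cells. Riiad1, Glul and Lpar4 in the Kmt2d+/βgeo-labelled library, and Sel1l3, Ankrd50 and Lpar4 in the one labelled wild type, reached the minimum mean of 0.5 in Hopx-high cells alone.

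The 10 genes with the lowest ratios were led by Lhfpl3 and Olig2, both on the oligodendrocyte lineage list. Olig2 had means of 0.868 in Hopx-high and 2.64 in Hopx-zero cells labelled Kmt2d+/βgeo, and 0.513 against 1.60 in those labelled wild type. The log2 ratios of Olig2 were -1.60 and -1.64, nearly the same in both libraries. Lhfpl3, a membrane protein gene used as a marker of oligodendrocyte precursors, had means of 0.105 against 0.758 and 0.1005 against 0.783, log2 ratios of -2.85 and -2.96. The 95% intervals of the ratios of summed UMIs, for counting error only, were -3.51 to -2.49 and -3.72 to -1.87 for Lhfpl3. A log2 Lhfpl3 value of at least 3, a threshold set after the data were seen, was found in few cells. In the Kmt2d+/βgeo-labelled library these were 3.56% of Hopx-zero and 0.205% of Hopx-high cells. In the one labelled wild type they were 4.95% and 0%. A thinned Lhfpl3 UMI was found in 9.06% and 4.62% there, with overlapping intervals (7.54 to 10.8% and 1.71 to 9.78%).

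The other low genes have varied roles. Rev3l, the catalytic subunit of a translesion DNA polymerase, had log2 ratios of -1.20 and -1.10 (means of 1.06 against 2.43 and 0.638 against 1.36). Basp1, a membrane protein gene of growing neurites, had ratios of -1.04 and -2.28, with means of 2.26 against 4.63 and 0.684 against 3.32. Egfr, the receptor for one of the growth factors that had been withdrawn, had means of 1.12 against 1.97 and 0.808 against 1.33, log2 ratios of -0.81 and -0.72. Chd7, a chromatin remodeller, had ratios of -0.74 and -0.85, and Smoc1, a secreted matricellular protein gene, -0.99 and -0.77. Ncald (-1.06 and -0.90), a neuronal calcium sensor, Jpt1 (-0.71 and -0.76) and Epn2 (-0.69 and -0.77), an endocytic adaptor, completed the set. Lhfpl3 and Epn2 in both libraries and Chd7 in the one labelled wild type reached the minimum mean of 0.5 in Hopx-zero cells alone.

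Less abundant genes were among the 26 lower past the fold in both libraries. Top2a, a topoisomerase of dividing cells, had 11 UMIs in all 976 Hopx-high cells against 77 in the 815 Hopx-zero cells labelled Kmt2d+/βgeo, and 2 against 292 in those labelled wild type. The Top2a UMIs of Hopx-zero cells came from 1.84% and 4.40% of those cells. Gad1, an enzyme of GABA synthesis, had 22 against 40 UMIs and 4 against 100. Pcdh15, a protocadherin gene, had 0 UMIs in the Hopx-high cells of both libraries, which allows up to 3 in each, and 29 and 103 in the Hopx-zero cells. Cacng4, an auxiliary subunit of AMPA receptors, had 13 against 117 and 1 against 165. All 4 genes entered the comparison through Hopx-zero cells alone in both libraries, so that a lower value was required of them, and of the 4 Cacng4 alone is among the 12 genes kept with the minimum set on all cells. Pcdh15 and Cacng4 were chosen after their values were seen. In the library labelled wild type 8 of the 26 genes had fewer than 4 UMIs in all Hopx-high cells, so their ratios are poorly determined.

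The 10 lowest and the 10 highest genes differed, on the median, in how their ratios were split over the Hopx level. Both sets were chosen for their ratios in these same cells, and the difference between the sets was not tested. Most of the deficit of the lower genes was already present in cells with a low positive Hopx value, those above 0 and below 3. The median log2 ratio of the 10 lowest genes was -0.79 from Hopx-zero to these low cells and -0.12 from low to Hopx-high cells in the Kmt2d+/βgeo-labelled library, and -0.63 and -0.30 in the one labelled wild type. The first of these steps was the larger for 10 and 8 of the 10 genes. Lhfpl3 went from 0.758 to 0.0925 and then 0.105 in the Kmt2d+/βgeo-labelled library, and from 0.783 to 0.127 and 0.1005 in the one labelled wild type. As given above, Lhfpl3 and Epn2 in both libraries, and Chd7 in the one labelled wild type, reached the minimum mean in Hopx-zero cells alone. A drop away from that class was therefore partly required of them. Olig2 in the library labelled wild type went from 1.60 to 0.457 and then 0.513. The exceptions were Egfr (-0.27 then -0.44) and Smoc1 (-0.35 then -0.42) in the library labelled wild type, while Ncald, Basp1, Egfr, Smoc1, Jpt1 and, with a second step of -0.0040 in the Kmt2d+/βgeo-labelled library, Chd7 were lower at both steps in both libraries. By contrast Lhfpl3, Olig2, Rev3l and Epn2 did not separate Hopx-high from low cells in the same direction in both libraries.

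The higher genes were divided more evenly over the 2 steps on the median, though not gene by gene. Their median log2 ratio was 0.42 from Hopx-zero to low cells and 0.33 from low to Hopx-high cells in the Kmt2d+/βgeo-labelled library, and 0.30 and 0.26 in the one labelled wild type. The first step was the larger for 6 and 5 of the 10, among them Lxn (0.57 then 0.09) and Rida (0.55 then 0.13) in the Kmt2d+/βgeo-labelled library, while Sel1l3 in the one labelled wild type had -0.04 then 0.70. All 10 were higher in Hopx-high than in low cells in both libraries, though the Hopx-high cells are those in which the genes were chosen. Across bins of the Hopx value of 0, above 0 to 2, 2 to 3, 3 to 4, and 4 and over, Gmpr had means of 1.06, 1.41, 1.71, 1.80 and 2.33 in the Kmt2d+/βgeo-labelled library. In the one labelled wild type these were 1.23, 1.39, 1.45, 2.10 and, in the last bin of 10 cells, 2.44. Cd59a was likewise higher in each successive bin, from 0.817 to 2.12 and, without the bin of 10 cells, from 0.549 to 0.895. With low cells in place of Hopx-zero cells as the reference, only 8 and 66 genes passed the fold, where the main comparison gave 145 and 158.

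**Figure D3:**
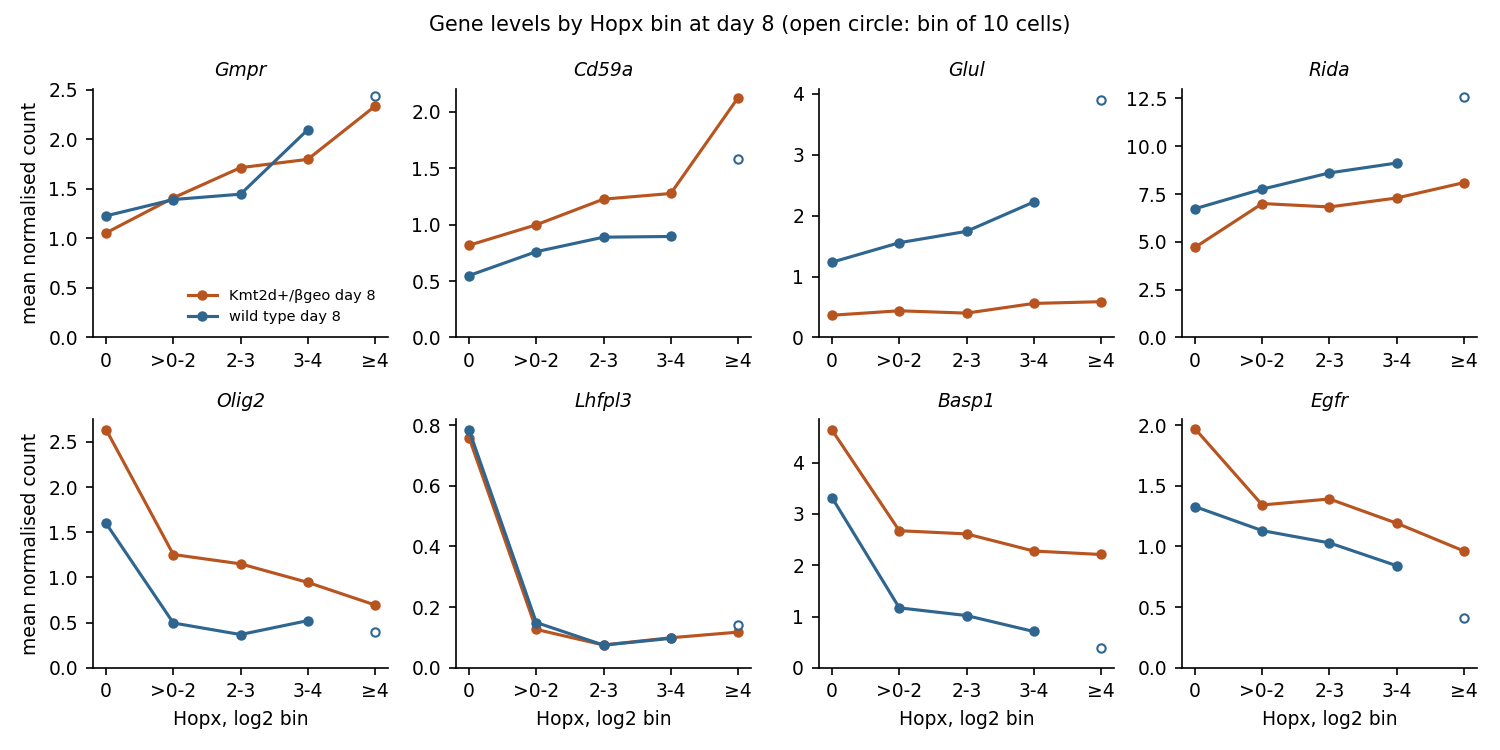
Mean normalised count (vertical axis, from 0) of 4 of the highest and 4 of the lowest genes in 5 bins of the log2 Hopx value (horizontal axis), with the Kmt2d+/βgeo-labelled library in orange and wild type in blue. Gmpr, Cd59a, Glul and Rida are higher at the top of the range than at 0, while Olig2, Lhfpl3 and Basp1 drop mainly between the first bin and the next; the open circle is a bin of 10 cells, and no error is drawn because cells are not replicates.

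The Hopx-zero cells held a minority rich in Olig2. A log2 Olig2 value of at least 3, a threshold set after the data were seen, was found in 11.8% of Hopx-zero, 3.15% of low and 2.66% of Hopx-high cells labelled Kmt2d+/βgeo. In the library labelled wild type it was found in 7.78%, 0.608% and 0 of 130 cells, the last of which allows up to 2.31% (3 counts of the total). After thinning to a common depth, 9.73%, 2.93% and 2.21% held at least 3 Olig2 UMIs in the first library and 7.33%, 0.885% and 0% in the second. Basp1, read at a different log2 threshold of at least 4, showed the same order, with 7.73% of Hopx-zero against 0.205% of Hopx-high cells, and 7.70% against 0%. Olig2 and Basp1 were both chosen among the 10 lowest genes in these same cells, so the order of these shares is a description only. The share of cells with any Olig2 UMI differed less, at 29.4% of Hopx-zero against 19.5% of Hopx-high cells and 19.1% against 14.6% after thinning. Before thinning these shares were 34.4% against 24.5% and 27.4% against 31.5%, the reverse order in the library labelled wild type. The thinned intervals of that library overlapped (16.9 to 21.3% and 9.03 to 21.9%), so no direction is read there. When cells with any Olig2 or Top2a UMI were left out of both classes, 730 and 87 Hopx-high and 529 and 900 Hopx-zero cells remained, and 99 and 174 genes passed the fold. The median log2 ratio of the 10 highest genes was then 0.59 and 0.54, where the main comparison gave 0.67 and 0.62. That of the lowest genes other than Olig2 was -0.49 and -0.38 over 9 genes, where the main comparison gave -1.01 and -0.87 over all 10.

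Astrocyte genes were modestly higher in Hopx-high than in Hopx-zero cells. Part of this difference was already present in low cells for Cst3 and, in the library labelled wild type, for Apoe, both given below. In the Kmt2d+/βgeo-labelled library low cells had the higher Apoe mean. Against low cells the listed genes had no common direction in the library labelled wild type. Log2 ratios of Hopx-high over low cells there were 0.33 for F3 and 0.23 for Slc4a4, but -0.18 for Slc6a11 and -0.11 for Fgfr3. Of 41 listed genes 27 were in the matrix, and Gfap, Aqp4 and Aldoc were not analysed here. The median log2 ratio of the 27 was 0.33 in the Kmt2d+/βgeo-labelled library and 0.18 in the one labelled wild type, beside -0.06 over all genes in each. Of them 18 were higher and 3 lower in both libraries, where over the 7273 genes compared in both 21.7% were higher and 40.4% lower in both. Beside 0.449% of all genes, 2 of the 27 passed the fold upward in the Kmt2d+/βgeo-labelled library (Ezr 1.09 and Chrdl1 1.01), and none did in the one labelled wild type. Chrdl1 had means of 0.138 against 0.0688 and entered the comparison through the Hopx-high cells alone. With cells holding an Olig2 or Top2a UMI left out of both classes the medians were 0.19 and 0.14, beside -0.04 and -0.02 over all genes.

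Individual astrocyte genes show how abundant this programme was in both classes. Cst3, a secreted cysteine protease inhibitor, had means of 75.1 against 50.1 and 139 against 103, log2 ratios of 0.58 and 0.43. Apoe, the main lipid carrier made by astrocytes, had means of 97.8 against 77.8 and 266 against 214, with ratios of 0.33 and 0.31. Low cells already had means of 71.1 and 114 for Cst3, and of 104 and 238 for Apoe. The log2 ratios of Hopx-high over low cells were 0.08 and 0.28 for Cst3, and -0.09 and 0.16 for Apoe. Slc1a3, the glutamate transporter GLAST, had 9.83 against 7.94 and 14.1 against 11.5, ratios of 0.31 and 0.29. Mt3, a metallothionein gene, had 167 against 126 and 201 against 167. Gja1, which encodes the gap junction protein connexin 43, had ratios of 0.40 and 0.16. S100b, a calcium-binding protein of mature astrocytes, had ratios of -0.33 and -0.16. Its thinned share of cells with a UMI was 17.8% against 23.2% in the first library but 36.9% against 29.8% in the second, where the counting interval of its ratio spanned 0 (-0.39 to 0.093), so no direction is read there. The gliogenic transcription factor genes Nfia and Nfib had ratios of -0.12 and -0.26, and of -0.13 and -0.14.

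**Figure D4:**
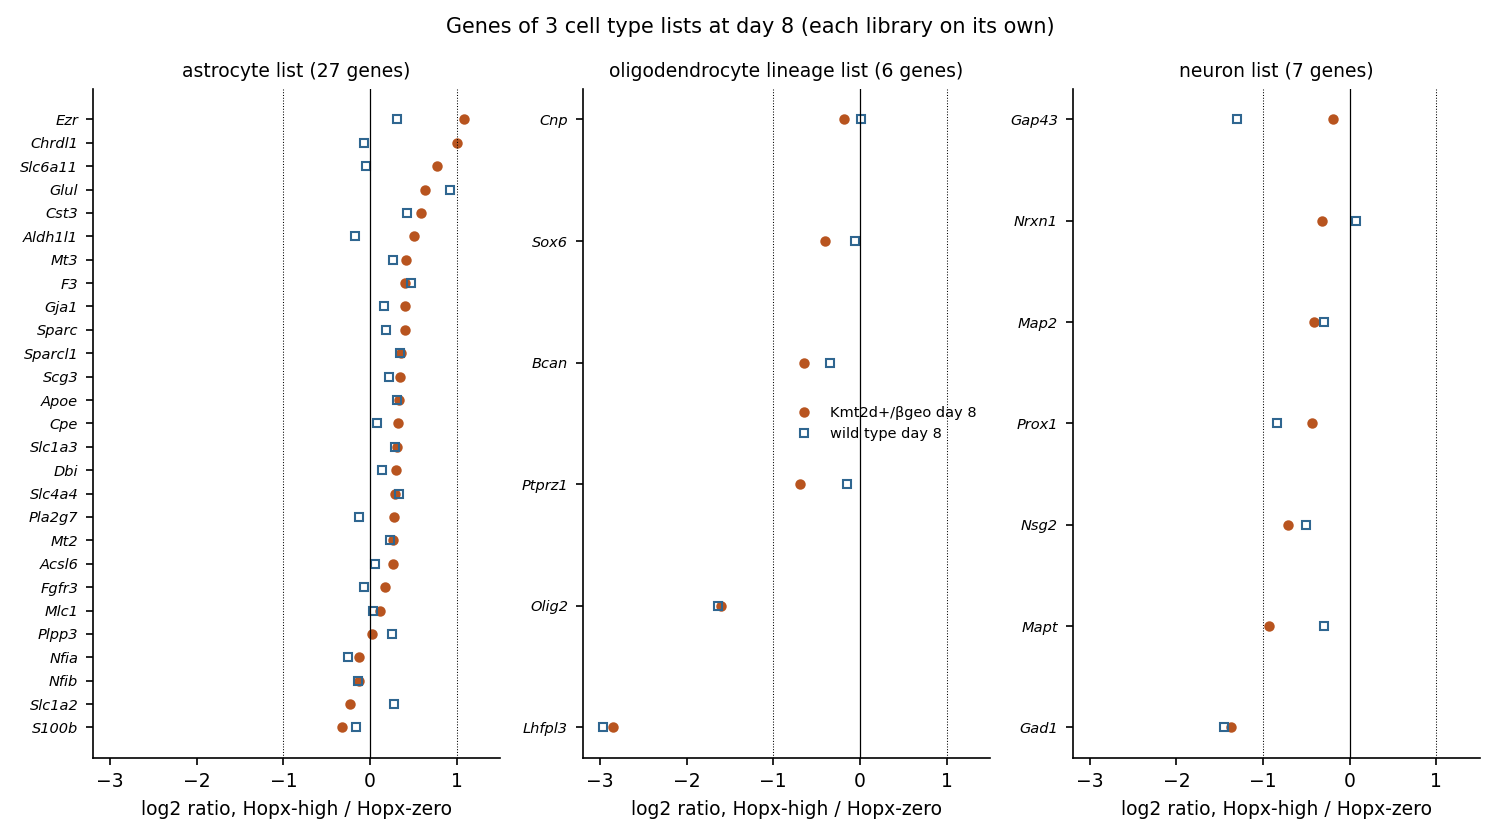
Log2 ratio of mean normalised counts, Hopx-high over Hopx-zero cells at day 8 (horizontal axis), for the genes of the astrocyte, oligodendrocyte lineage and neuron lists compared in both libraries, with filled circles for the Kmt2d+/βgeo-labelled library and open squares for wild type. Most of the 27 astrocyte genes lie between 0 and 0.5, whereas Olig2 and Lhfpl3 lie left of the dotted line at -1 in both libraries.

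The oligodendrocyte lineage and neuron lists were lower in Hopx-high than in Hopx-zero cells, on the median, in both libraries. Of 22 genes of the oligodendrocyte lineage list 6 were measured, and their median log2 ratios were -0.67 and -0.24. The direction in the library labelled wild type turned, to 0.049, when cells with an Olig2 or Top2a UMI were left out of both classes, which also removes Olig2 itself. Olig2 and Lhfpl3 passed the fold downward in both libraries, as 0.357% of all genes did, and Ptprz1 (-0.69 and -0.14), Bcan (-0.65 and -0.34) and Sox6 (-0.40 and -0.05) were lower without passing it. Cnp, a myelin enzyme gene, had -0.18 and 0.01. For Hopx-high over low cells, wild type ratios were 0.17 for Olig2, 0.11 for Ptprz1, 0.02 for Bcan, 0.10 for Cnp and 0.35 for Sox6. Only Lhfpl3 (-0.33) was lower there. In the Kmt2d+/βgeo-labelled library Olig2 (-0.45), Bcan (-0.20), Ptprz1 (-0.08) and Cnp (-0.03) were lower, but Lhfpl3 (0.18) and Sox6 (0.06) higher. The summed mean of the 6 genes was 8.12 in Hopx-high and 14.3 in Hopx-zero cells labelled Kmt2d+/βgeo, and 11.7 against 14.6 in those labelled wild type. Of the neuron list 8 and 7 genes were compared, with medians of -0.57 and -0.50 beside -0.06 over all genes, and 6 of the 7 compared in both were lower in both, beside 40.4% of all genes. Gad1 in both libraries and Rbfox3 in the Kmt2d+/βgeo-labelled one reached the minimum mean in Hopx-zero cells alone. With the minimum set on all cells of the library 7 and 6 genes remained, with medians of -0.44 and -0.40, and 5 of the 6 compared in both were lower in both, beside 40.3% of all genes. Rbfox3 and Elavl3, which mark postmitotic neurons, had 37 and 1 UMIs in the 976 Hopx-high and 39 and 19 in the 815 Hopx-zero cells labelled Kmt2d+/βgeo. In those labelled wild type they had 0 in the 130 Hopx-high cells, which allows up to 3 for each, and 52 and 66 in the 1273 Hopx-zero cells. Ependymal and vascular markers had 1 gene each in the matrix, Dynlrb2 and Igfbp7, with log2 ratios of 0.17 and 0.42, and 0.07 and -0.21. What part other cell types have in these differences was not tested.

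Radial glia and neural stem cell genes differed little between the classes on the median. Of 9 in the matrix 8 were compared, with median log2 ratios of 0.08 and 0.11 beside -0.06 over all genes in each library, and none passed the fold, where 1.91% and 2.09% of all genes did. Of the 8, 3 were higher in both libraries and 0 lower in both, beside 21.7% and 40.4% of all genes. Vim, an intermediate filament gene, had means of 45.3 against 40.5 and 95.2 against 80.7, log2 ratios of 0.16 and 0.24. Fabp7, a fatty acid binding protein gene of radial glia, had 15.1 against 15.0 in the Kmt2d+/βgeo-labelled library and 12.8 against 17.0 in the one labelled wild type. Ptn, which encodes the growth factor pleiotrophin, had ratios of -0.30 and 0.03. The transcription factor genes Pax6 and Gli3 had ratios of -0.12 and 0.54, and of -0.03 and 0.74. The wild type ratio of Gli3 rested on 18 UMIs in Hopx-high cells, and its thinned share of cells with a UMI was 3.85% against 4.02%, so no direction is read from it. Prom1 had 0.56 and -0.75.

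Cell cycle genes were scarce in both classes. Of 26 S phase genes 8 and 10 were compared, with median log2 ratios of -0.26 and -0.76, and 6 of the 8 compared in both libraries were lower in both, beside 40.4% of all genes. Of the 8 and 10 genes 2 and 5 reached the minimum mean in Hopx-zero cells alone. With the minimum set on all cells of the library 6 and 8 genes remained, with medians of -0.15 and -0.68, and 4 of the 6 compared in both were lower in both, beside 40.3% of all genes. Mcm7, a subunit of the replicative helicase, had ratios of -1.01 and -0.61, and Mcm6 had -0.35 and -1.20, while Mcm4 (0.11 and -0.86) and Tipin (0.15 and -0.36) were higher in Hopx-high cells of the Kmt2d+/βgeo-labelled library. The summed mean of the 13 S phase genes in the matrix was 1.99 against 2.23 and 1.95 against 3.15. The G2 and mitosis list, with 5 genes compared in each library, had medians of -0.39 and 0.06 (-0.13 and 0.06 with the minimum set on all cells) and summed means of 3.73 against 3.72 and 5.04 against 4.76, where Top2a was low and the more abundant Ckap5 was slightly higher (0.17 and 0.32). A thinned Top2a UMI was found in 0.780% of Hopx-high and 2.07% of Hopx-zero cells labelled Kmt2d+/βgeo, and in 1.54% and 2.92% of those labelled wild type. The intervals overlapped in the first library (0.287 to 1.69% and 0.997 to 3.77%) and in the second (0.187 to 5.45% and 2.06 to 4.00%). No direction is read from these shares.

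The genes of cell cycle exit and quiescence showed no common direction. The medians of the 14 genes were -0.06 and -0.04, beside -0.06 over all genes in each library. None passed the fold, where 1.91% and 2.09% of all genes did, so that count is not read as a result about this list. Ccnd2, a G1 cyclin, had ratios of -0.32 and -0.50, and Klf9, a transcription factor tied to stem cell quiescence, 0.26 and 0.35. Of the Notch pathway 10 genes were compared, with medians of -0.20 and -0.07. The receptor genes Notch1 (-0.24 and -0.14) and Notch2 (-0.19 and -0.31) and the ligand-like gene Dner (-0.77 and -0.51) were lower in both libraries, and the nuclear effector gene Rbpj stood at -0.01 in each.

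Further pathways held few ordered differences. The BMP list had medians of 0.01 and -0.17, and its target gene Id3 had means of 2.17 against 3.60 and 2.27 against 2.66. The WNT list had medians of -0.13 and -0.02, with Lgr4, an R-spondin receptor gene, at 0.85 and 0.47 and the target gene Axin2 at -0.49 and -0.63. The extracellular matrix list differed between the libraries, with a median of 0.30 in the one labelled Kmt2d+/βgeo and -0.02 in the one labelled wild type. Fn1, the fibronectin gene, had 0.857 against 0.510 in the first and 0.226 against 0.231 in the second, while Timp3, a metalloproteinase inhibitor gene, was higher in Hopx-high cells of both (0.30 and 0.59). The cholesterol and lipid list had medians of 0.03 and -0.11, and 1 gene of the 30 and 29 compared passed the fold, downward and in the library labelled wild type, where 1.74% of all genes did. It was Cyp51, a sterol synthesis enzyme gene (-0.09 and -1.03).

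Reactive astrocyte genes lay near the values of all genes. The 7 of 21 measured had medians of 0.03 and -0.0048, and 2 were higher and 2 lower in both libraries, beside 21.7% and 40.4% of all genes. The higher ones were Vim, given above, and Cd44, a hyaluronan receptor gene, with ratios of 0.27 and 0.34. Of 25 immediate early and stress genes 3 were measured, with medians of -0.14 and -0.21. Of 41 genes of cytosolic ribosomal proteins 35 were lower in Hopx-high cells of both libraries and 1 was higher in both, beside 40.4% and 21.7% of all genes, with small medians of -0.17 and -0.14 against -0.06 over all genes.

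Some genes differed between the classes in 1 library and not in the other. Gria2, an AMPA receptor subunit gene, had means of 0.0994 against 0.575 in the Kmt2d+/βgeo-labelled library, a log2 ratio of -2.53, and 1.54 against 1.60 in the one labelled wild type, a ratio of -0.06. A2m, which encodes a protease inhibitor, had 2.80 against 1.16 (1.27) in the first and 6.39 against 5.87 (0.12) in the second. Lix1 had ratios of 1.05 and -0.13, and Prrx2, a homeobox gene, 0.71 and -0.41. With 1 library per genotype, these differences between libraries were not tested.

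For some genes Hopx-high cells of the 2 libraries also kept the level differences of the libraries they came from. Apoe was 266 in Hopx-high cells labelled wild type and 97.8 in those labelled Kmt2d+/βgeo, and the Hopx-zero cells stood at 214 and 77.8. Luzp2, chosen after its values were seen, had a thinned UMI in 53.6% of Hopx-high cells labelled Kmt2d+/βgeo and 1.54% of those labelled wild type, while for Hopx-zero cells the shares were 45.8% and 2.44%. For both genes the gap between libraries was wider than the gap between the classes.

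The leading genes of day 8 were also examined in the Hopx-high cells of days 2 and 4, which the selection at day 8 did not use. In Hopx-zero cells of day 4, Kmt2d+/βgeo before wild type, Glul had means of 3.06 and 3.06 and Apoe of 192 and 181. Apoe had 172 and 114 at day 2, and 77.8 and 214 at day 8. Not every gene was as close at day 4, where Mt3 had 76.6 and 113. Whether the day 4 libraries are independent of each other was not tested. The next counts run from the day 2 libraries labelled Kmt2d+/βgeo and wild type to the day 4 libraries in the same order. Of the 10 highest genes 9, 8, 9 and 10 lay above 0, with median log2 ratios of 1.15, 1.21, 0.98 and 0.79. Of these genes 7, 6, 5 and 4 were higher past the fold, where 2.78%, 2.61%, 2.27% and 1.15% of all genes compared were. Of the 10 lowest genes 9, 10, 10 and 10 lay below 0, with medians of -1.74, -1.82, -1.72 and -1.84. Past the fold downward were 8, 7, 8 and 9 of them, where 3.21%, 2.85%, 4.85% and 3.74% of all genes compared were. The shares of all genes above and below 0 on these days are not given here. At day 8 the median log2 ratios were 0.67 and 0.62 for the highest genes and -1.01 and -0.87 for the lowest. The medians were thus farther from 0 on the earlier days, but not every gene was: Epn2 had -0.43 and -0.56 at day 2 against -0.69 and -0.77 at day 8, and Lhfpl3 had -1.89 in the day 2 library labelled wild type against -2.96 at day 8.

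Olig2, Glul and Gja1 were among the genes with ratios nearer to 0 at day 8. Olig2 had ratios of -2.66 and -2.32 at day 2 and -2.59 and -2.49 at day 4, with means of 6.65 and 8.62 in the Hopx-zero cells of day 2 that were down to 2.64 and 1.60 at day 8. Glul had ratios of 1.46 and 2.09 at day 2 and 1.78 and 1.54 at day 4. The day 2 ratios of Gja1 were 1.56 and 1.78, those of day 4 were 1.00 and 0.86, and those of day 8 were 0.40 and 0.16. The mean of Gja1 was 0.583 and 1.52 in Hopx-high and 0.198 and 0.441 in Hopx-zero cells on day 2, and 2.54 and 3.63 against 1.92 and 3.24 on day 8, so that it was higher on day 8 in both classes.

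Sox9 followed the same course, with day 2 ratios of 0.87 and 0.74, day 4 ratios of 0.69 and 0.51, and the day 8 ratios of 0.16 and 0.15 given above. Its mean in Hopx-zero cells was 1.57 and 2.36 at day 2 and 6.86 and 6.59 at day 8. The highest genes had exceptions in Sel1l3, with day 2 ratios of -0.16 and -0.05 and day 4 ratios of -0.03 and 0.20, and in Ankrd50, with -0.16 in the day 2 library labelled wild type, and Basp1 stood at 0.0048 in the day 2 Kmt2d+/βgeo-labelled library. Over all genes compared, 2.78% and 2.61% were higher past the fold at day 2, against 0.449% and 0.344% at day 8. The earlier libraries were deeper and held 65 to 267 Hopx-high cells, where those of day 8 held 976 and 130, so these shares are set side by side and not compared further.

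**Figure D5:**
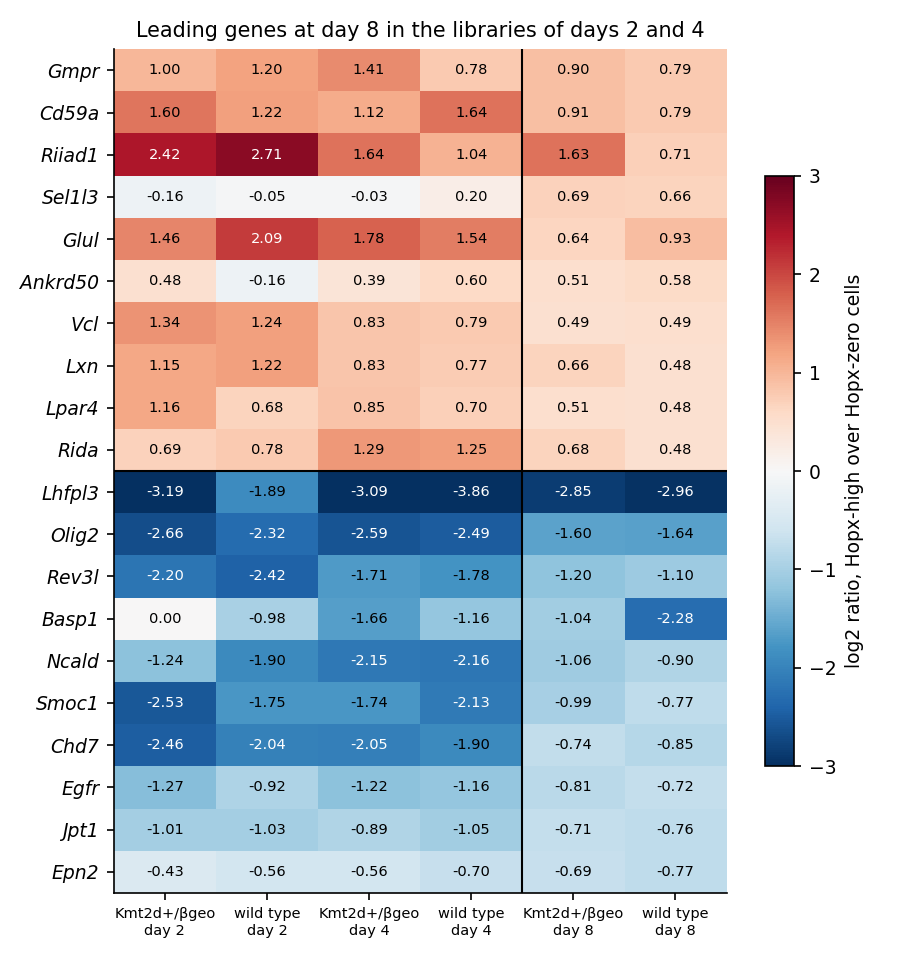
Log2 ratio of mean normalised counts, Hopx-high over Hopx-zero cells, for the 10 highest (upper rows) and 10 lowest genes of day 8 (lower rows) in the libraries of days 2, 4 and 8; red is higher and blue lower in Hopx-high cells. The upper rows are red except Sel1l3 in both day 2 libraries and the day 4 Kmt2d+/βgeo-labelled one and Ankrd50 in the day 2 library labelled wild type, and the lower rows are blue except Basp1 in the day 2 Kmt2d+/βgeo-labelled library, with Olig2 between -2.66 and -1.60.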

How the data were processed

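Per the study's methods, the authors quantified spliced reads with Alevin (Salmon 1.3.0) on GRCm38, removed cells with few genes or outlying totals, mitochondrial share or doublet score, scaled each cell by library size and deposited log2(normalised count + 1) values. The authors' cell table gives estimated counts (total UMIs) per cell. The paper analyses only the day 0 cells of this series, and its methods do not say whether the day 8 cells passed the same doublet step. No doublet caller was run here. Here log2 values were turned back to normalised counts, which summed to 8707.1 per cell. Within each cell, the value that occurred most often stood for 1 UMI, after which 86.8% of nonzero values lay within 0.01 of a whole number.

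Cells were classed by Hopx (at least 3, or 0), and classes were compared within each library as log2 ratios of their mean normalised counts, for genes with a mean of at least 0.1 in either class, counted past a log2 ratio of 1. A gene at 0 in 1 class counts as past the fold. Such a minimum lets a gene enter through the class where it is high, so the lists were also described with the minimum set on all cells of the library. Named genes are Hopx, Sox9 and Kmt2d, the 10 highest and 10 lowest genes by the ratio nearer to 0 (mean of at least 0.5 in both libraries), up to 3 genes per list past the fold in both libraries, defining markers of other cell types, and the 5 genes that differed most between libraries; other genes named as examples, most of them from the 18 lists, were chosen after their values were seen. For shares of cells with a UMI, cells were thinned to 3000 UMIs, which left out 207 Hopx-high and 332 Hopx-zero cells labelled Kmt2d+/βgeo and 0 and 4 labelled wild type. Intervals are exact 95% Clopper-Pearson or conditional binomial and cover counting error only; for a count of 0 the limit given is 3 counts. There is 1 library per genotype and day, so no test was run. The members and lists were chosen with earlier results of these data known. The script was tested on simulated data. Python 3.11.15, numpy 2.4.6, scipy 1.17.1 and pandas 2.3.3 were used. Alternatives were other Hopx thresholds, references, minima, depth treatments and scales. The result of 1 of the lists is not reported here.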

Additional observations from a re-analysis of the deposited data

Results flagged for a closer look

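In each of 5 listed genes the ratio of Hopx-high over Hopx-zero cells pointed in opposite directions in the 2 day 8 libraries, with a counting interval clear of 0 in each. With 1 library per genotype the difference between the libraries was not tested. Prom1, a stem cell surface protein gene, had a log2 ratio of 0.56 in the Kmt2d+/βgeo-labelled library and -0.75 in the one labelled wild type. Slc1a2, the glutamate transporter GLT-1, had -0.23 and 0.28. Pla2g7, a secreted phospholipase gene, had 0.27 and -0.13. Cdkn2a, which encodes inhibitors of the cell cycle, had -0.42 and 0.41. Hmgcs1, an enzyme gene of sterol synthesis, had 0.19 and -0.54. The share of cells with a UMI at a common depth did not always follow the ratio. In the Kmt2d+/βgeo-labelled library it was 3.25% of Hopx-high against 3.31% of Hopx-zero cells for Prom1 and 40.7% against 40.6% for Slc1a2. In the one labelled wild type it was 85.4% against 76.0% for Pla2g7. For Slc1a2 in that library it was 36.2% against 35.1%, the direction of its ratio but nearly equal. No direction is read from these ratios.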

How the results depend on the processing

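No paired test was run, and the labels give 1 library per genotype and day and so no replicate numbers. Hopx-high and Hopx-zero cells were compared within each library, and with 2 day 8 libraries an exact two-sided permutation test of that pairing cannot go below 0.5; days and genotypes differ between the other libraries, which were not pooled with them. The 14 alternatives for the gene comparisons include 5 chosen after seeing the data: no Olig2 or Top2a UMI in Hopx-zero cells alone, which filters 1 class and so favours ratios nearer to 0 for lower genes, none in either class, a minimum mean of 0.1 over all cells of the library, cells with Hopx above 0 and below 3 as the reference, and no cell with a shared barcode. In what follows the Kmt2d+/βgeo-labelled library comes before the one labelled wild type, and the cause of each change was not tested unless its construction is stated. The Hopx-high share was 47.3% and 10.5% at a threshold of 2.5, 10.2% and 0.311% at a threshold of 4, and 5.36% in the library labelled wild type with at least 3 UMIs after thinning. The order of the libraries was the same at each.

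The number of genes past the fold, 145 and 158 as reported, varied widely between settings. It was 1 and 0 on the mean log2 scale, 26 and 78 with all cells below the threshold as the reference, 24 and 6 with a minimum mean of 0.5, 321 and 429 with no minimum, 318 and 2415 at a threshold of 4 (where 10 cells labelled wild type remain), and 8 and 66 with the low cells as the reference. In the Kmt2d+/βgeo-labelled library it was 60 without Olig2 or Top2a cells in the reference and 84 with the minimum set on all cells, and it was 508 after thinning and 315 with depth-matched cells in the one labelled wild type. In all, 12 of 28 alternative values lay within 1.5 times the reported one.

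The median of the oligodendrocyte lineage list was -0.24 and -0.085 on the mean log2 scale, -0.12 with depth-matched cells in the library labelled wild type, and -0.17 and 0.066 without Olig2 or Top2a cells in the reference, which by construction removes Olig2. Without such cells in either class it was -0.21 and 0.049. That of the astrocyte list was 0.16 and 0.045 without such cells in the reference and 0.19 in the Kmt2d+/βgeo-labelled library without them in either class. Of 776 ratios of named genes under alternatives, 564 moved by no more than their counting interval allows and 4 that had passed the fold changed sign: Lhfpl3 (0.18) and Rev3l (0.011) in the Kmt2d+/βgeo-labelled library and Olig2 (0.17) in the one labelled wild type with low cells as the reference, and Gad1 (1.19) in the one labelled wild type at a threshold of 4. The Hopx threshold, 7 normalised counts, stood for a median of 3.19 and 5.62 UMIs.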
